A study of Mus musculus with 6 samples.

Results

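The tight junction genes measured in sorted hair follicle stem cells (HFSCs) were 9 of the 56941 genes of the count table, taken by symbol: the claudins Cldn1, Cldn3, Cldn4, Cldn6, Cldn7 and Cldn12, the occludin gene Ocln, and the zonula occludens genes Tjp1 and Tjp3. Total RNA was sequenced from HFSCs of the dorsal skin of female mice at postnatal day 68 (PD68), sorted by FACS as CD34+/α6-integrin+ cells, with 3 biological replicates per genotype. All mice came from the B6;129S4-Dab2tm1Cpr/J strain, were homozygous for floxed Dab2 (Dab2fl/fl) and received 75 mg/kg tamoxifen by intraperitoneal injection on 5 consecutive days. WT mice lacked the Cre transgene (K14CreER-/- Dab2fl/fl), and Dab2-cKO mice carried 1 copy of it (K14CreER+/- Dab2fl/fl). The K14 promoter drives this tamoxifen-activated Cre in the basal keratinocytes of the epidermis and follicle as well as in HFSCs, so its activity is not limited to the sorted cells. Whether the 3 replicates of a genotype were 3 mice or pools was not stated in the sources used here.

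Tight junctions seal the space between neighbouring epithelial cells near their apical border. Claudins span the membrane and, paired with claudins of the adjacent cell, form the strands that set which ions and solutes pass, while occludin, a MARVEL-domain protein, is built into the same strands. The zonula occludens proteins ZO-1 and ZO-3, encoded by Tjp1 and Tjp3, bind the claudin tails on the cytoplasmic side and tie the strands to actin. In skin, functional tight junctions are known from the granular layer of the epidermis, and several of their genes are also expressed in the follicle.

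The libraries held 7040032 to 11696457 counts each. The count columns used as Dab2-cKO are named FL-FL and were matched to that group through the series title, although both genotypes are floxed, so "Dab2-cKO-labelled" below means these columns. Dab2, the targeted gene, was higher in these columns and so did not bear this match out. It had 304, 368 and 362 counts in the WT-labelled libraries and 1504, 1130 and 1259 in the Dab2-cKO-labelled ones. The log2 difference was 2.08 (SE 0.08, edgeR adjusted p = 3.04e-34). The paper reports less Dab2 mRNA in Dab2-cKO epidermis by qPCR, with mice taken at PD68 for this check, and deletion of Dab2 in the follicle by staining. It also reports Dab2 staining in the dermal papilla. Markers of other cells, given below, were also present, and their part in the Dab2 counts was not tested. The count table does not show which exons these reads cover. Every direction below therefore rests on the match of columns to genotypes. The sort marker gene Cd34 lay at 42.7 ± 4.45 normalized counts per kb in the WT-labelled libraries and at 149 ± 2.98 in the Dab2-cKO-labelled ones (SD, n = 3). Cd34 was among the 5 of 8 bulge HFSC genes that were higher, and Lgr5, Lhx2 and Sox9 were lower. Krt15 (3556 ± 234 and 6351 ± 111 normalized counts) and Nfatc1 were also higher. The paper's staining at PD68 showed weaker CD34 and K15 in Dab2-cKO bulges, and more cells with Sox9 or NFATc1. Under this match of columns, Cd34, Krt15 and Sox9 thus ran opposite to that staining, and Nfatc1 ran the same way. Which cells gave the Cd34 reads was not tested. The libraries also held genes of other cells, since the fibroblast collagen gene Col1a1 (7018 ± 724 and 20700 ± 407 normalized counts per kb) exceeded the keratin gene Krt14 (3403 ± 224 and 6122 ± 136). In such bulk RNA, fewer cells of a type and less RNA of a gene per cell cannot be told apart.

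Of the 9 tight junction genes, 6 were lower and 1 was higher in the Dab2-cKO-labelled libraries. The claudin genes Cldn3 and Cldn4 fell 2.81-fold and 2.82-fold, Cldn1 fell 1.86-fold, and Ocln, Cldn12 and Tjp1 fell 1.49-fold, 1.44-fold and 1.35-fold. Tjp3 alone rose, by 1.88-fold. Cldn6 and Cldn7, which had the fewest counts, did not pass the test. A gene was called when its adjusted p in edgeR's quasi-likelihood test fell below 0.05 among the 32149 genes that passed the expression filter, which all 9 genes did. Over all genes tested, 28.2% were called, 11.5% lower and 16.8% higher. The median log2 fold change was -0.58 for the 9 genes and -0.02 for all genes tested.

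**Figure D1:**
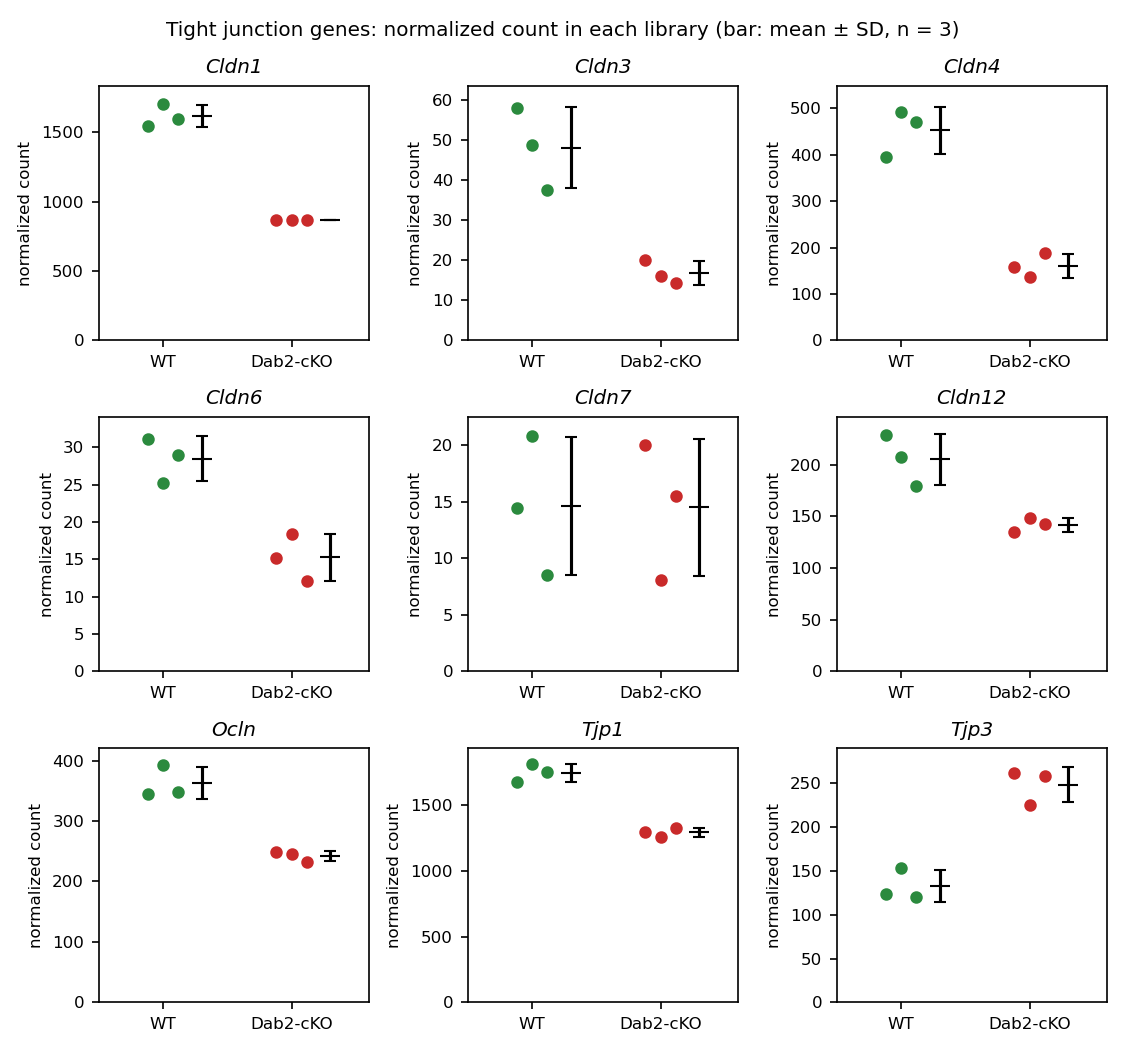
Normalized counts of each tight junction gene in every library (vertical axes, from 0, in counts scaled to the mean effective library size), with WT and Dab2-cKO as labelled on the horizontal axes, points for libraries and bars for mean ± SD (n = 3). The points of the genotypes are separate in every panel except Cldn7, and Tjp3 is the panel in which the Dab2-cKO-labelled libraries are the higher ones.

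Levels between genes were compared as normalized counts per kb of exon, and were set against 1561 olfactory, vomeronasal and trace amine receptor genes, which skin cells are not known to use and which had a median of 4.89 and a 95th percentile of 11.7 on this scale. In the WT-labelled libraries, Cldn1 was the most abundant tight junction gene (333 ± 16.5 normalized counts per kb), followed by Cldn4 (249 ± 28) and Tjp1 (221 ± 8.54), whose libraries overlapped. Ocln (38.6 ± 2.83) and Cldn3 (38.2 ± 8.08) formed the next pair and also overlapped. Tjp3 (24.4 ± 3.36), Cldn12 (20.1 ± 2.40) and Cldn6 (16.6 ± 1.74) came after them, and each of these overlapped its neighbour. Cldn7 (6.91 ± 2.89) was the least abundant and did not reach the receptor genes' 95th percentile.

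In the Dab2-cKO-labelled libraries, Cldn1 (179 ± 0.154 normalized counts per kb) remained first, and Tjp1 (164 ± 4.34) stood above Cldn4 (88.4 ± 14.7) without overlap. Tjp3 (45.8 ± 3.71) ranked above Ocln (25.8 ± 0.891), the reverse of their order in the WT-labelled libraries. Cldn12 (13.9 ± 0.685) and Cldn3 (13.4 ± 2.31) overlapped. Cldn3 rested on 21, 14 and 13 counts there. In Dab2-cKO replicates 2 and 3 its level (12.8 and 11.4) lay under the receptor genes' 95th percentile of the same library (13.1 and 12.7). Cldn6 (8.87 ± 1.82) and Cldn7 (6.87 ± 2.86) overlapped as well, and neither reached the receptor genes' 95th percentile. Cldn6 was thus above that level in the WT-labelled libraries only.

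**Figure D2:**
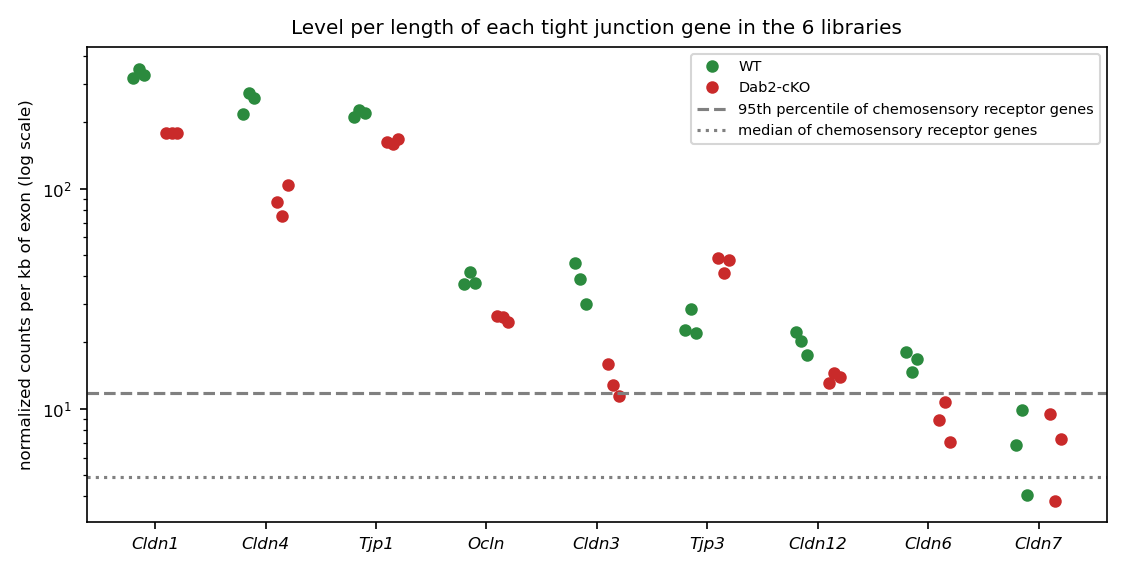
Level of each tight junction gene in normalized counts per kb of exon (log axis), in the libraries of both labels, with points for libraries and lines at the median (dotted, 4.89) and the 95th percentile (dashed, 11.7) of 1561 chemosensory receptor genes. Cldn1, Cldn4 and Tjp1 lie far above both lines, and Cldn7 lies under the dashed line in both genotypes.

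Cldn1 (ENSMUSG00000022512; GRCm39 chr16:26175392-26190596, minus strand) encodes claudin-1, which is required for the water barrier of the epidermis. The WT-labelled libraries had 1547, 1703 and 1595 normalized counts, that is, counts scaled to the mean effective library size. The Dab2-cKO-labelled ones had 868, 868 and 866. The genotypes did not overlap. The log2 fold change was -0.90 (SE 0.07, adjusted p = 9.99e-18).

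Cldn4 (ENSMUSG00000047501; chr5:134973973-134975788, minus strand) and Cldn3 (ENSMUSG00000070473; chr5:135015068-135016326, plus strand) lie near each other on chromosome 5, and both proteins are known as receptors of a clostridial enterotoxin. Cldn4 had 395, 492 and 471 normalized counts in the WT-labelled libraries and 157, 136 and 189 in the Dab2-cKO-labelled ones. Cldn3 had 57.9, 48.8 and 37.6 against 20.03, 16.1 and 14.3. Both genes were lower in each library labelled Dab2-cKO than in any labelled WT. Their log2 fold changes were -1.50 (SE 0.11, adjusted p = 1.78e-18) for Cldn4 and -1.49 (SE 0.32, adjusted p = 8.39e-05) for Cldn3. These nearly equal values were moved apart by subtraction of the receptor-gene background, to -1.55 for Cldn4 and -1.95 for Cldn3. Of the exon bases of Cldn3, 72.0% overlap Wbscr25 on the opposite strand, and the strand setting of the counting was not given in the sources used here. Wbscr25 itself had 18, 30 and 22 counts in the WT-labelled libraries and 28, 14 and 26 in the Dab2-cKO-labelled ones, which overlapped.

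Cldn12 (ENSMUSG00000046798; chr5:5539537-5564995, minus strand) encodes a claudin that lacks the PDZ-binding tail by which most others bind ZO proteins. It had 228, 208 and 179 normalized counts in the WT-labelled libraries and 134, 148 and 142 in the Dab2-cKO-labelled ones. The genotypes were separate, with a log2 fold change of -0.53 (SE 0.13, adjusted p = 0.00106).

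Cldn6 (ENSMUSG00000023906; chr17:23898223-23901420, plus strand), a claudin known from embryonic epithelia, had 31.2, 25.3 and 29.1 normalized counts in the WT-labelled libraries and 15.3, 18.4 and 12.1 in the Dab2-cKO-labelled ones. The libraries did not overlap, but its log2 fold change of -0.89 (SE 0.38) missed the threshold (adjusted p = 0.068). With upper-quartile factors or library size alone the same gene was called, at -1.04 and -1.32. Cldn7 (ENSMUSG00000018569; chr11:69852648-69858711, plus strand) encodes a claudin that binds EpCAM along the lateral membrane. Its values of 14.5, 20.8 and 8.54 normalized counts in the WT-labelled libraries overlapped the 20.03, 8.05 and 15.5 of the Dab2-cKO-labelled ones. The log2 fold change of 0.01 (SE 0.46, adjusted p = 0.99) rested on 7 to 23 counts per library, so that a moderate change was not detectable at this depth. Of its exon bases, 15.7% overlap Elp5 on the opposite strand.

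Ocln (ENSMUSG00000021638; chr13:100630334-100689535, minus strand) had 345, 393 and 349 normalized counts in the WT-labelled libraries and 249, 245 and 233 in the Dab2-cKO-labelled ones. All Dab2-cKO-labelled libraries were lower, with a log2 fold change of -0.58 (SE 0.11, adjusted p = 5.77e-06).

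The scaffold genes moved in opposite directions. Tjp1 (ENSMUSG00000030516; chr7:64945898-65177529, minus strand), whose product ZO-1 is found at tight junctions and also at adherens junctions, had 1678, 1813 and 1755 normalized counts in the WT-labelled libraries. In the Dab2-cKO-labelled ones it had 1297, 1262 and 1331, all lower, for a log2 fold change of -0.43 (SE 0.07, adjusted p = 3.79e-07). Tjp3 (ENSMUSG00000034917; chr10:81109034-81127417, minus strand), whose product ZO-3 is a scaffold of epithelial cells, had 124, 153 and 120.5 normalized counts in the WT-labelled libraries. In the Dab2-cKO-labelled ones it had 262, 226 and 258, all higher, for a log2 fold change of 0.91 (SE 0.13, adjusted p = 1.94e-08).

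Counted by separation of the libraries, 7 of the 9 genes were lower in every library labelled Dab2-cKO than in any labelled WT and 1 was higher, where 38.3% of all genes tested were separate, 17.7% lower and 20.6% higher. The exact permutation test of single genes gave p = 0.1 for these 8 genes and p = 1 for Cldn7, and 0.1 is the smallest value that 3 against 3 libraries allow. The 9 genes together held 0.0559% to 0.0568% of all counts in the WT-labelled libraries and 0.0271% to 0.028% in the Dab2-cKO-labelled ones. These shares rest on library size only. As normalized counts, the difference was smaller, with sums of 4420 to 4856 and 2927 to 3062.

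The promoters of Cldn1, of the Cldn3 and Cldn4 pair and of Tjp3, the only gene that rose, are shown to set the gene with the opposite direction beside the most abundant and the most reduced ones. Each is the 250 bases before a transcription start in RefSeq (GRCm38.p6), 5′ to 3′ on the gene's strand, with motif matches on either strand in capitals. They lie at chr16:26371840-26372089 (minus strand) for Cldn1, chr5:134985964-134986213 (plus strand) for Cldn3, chr5:134946935-134947184 (minus strand) for Cldn4, and chr10:81291582-81291831 and chr10:81291268-81291517 (minus strand) for starts 1 and 2 of Tjp3.
Cldn1: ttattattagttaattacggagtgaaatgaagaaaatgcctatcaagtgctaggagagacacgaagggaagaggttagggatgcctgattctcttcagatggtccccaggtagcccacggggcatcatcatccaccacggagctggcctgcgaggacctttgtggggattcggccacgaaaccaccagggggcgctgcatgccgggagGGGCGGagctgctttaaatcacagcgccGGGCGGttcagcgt
Cldn3: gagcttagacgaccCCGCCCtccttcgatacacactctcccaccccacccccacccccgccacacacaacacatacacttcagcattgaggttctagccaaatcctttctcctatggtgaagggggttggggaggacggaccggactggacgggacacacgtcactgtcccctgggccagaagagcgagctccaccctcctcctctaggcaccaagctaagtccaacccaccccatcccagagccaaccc
Cldn4: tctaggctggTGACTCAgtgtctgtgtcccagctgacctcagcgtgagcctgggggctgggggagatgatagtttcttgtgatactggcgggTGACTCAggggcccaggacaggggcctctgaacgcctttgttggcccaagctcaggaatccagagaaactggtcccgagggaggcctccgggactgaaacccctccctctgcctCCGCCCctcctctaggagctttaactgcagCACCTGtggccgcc
Tjp3 start 1: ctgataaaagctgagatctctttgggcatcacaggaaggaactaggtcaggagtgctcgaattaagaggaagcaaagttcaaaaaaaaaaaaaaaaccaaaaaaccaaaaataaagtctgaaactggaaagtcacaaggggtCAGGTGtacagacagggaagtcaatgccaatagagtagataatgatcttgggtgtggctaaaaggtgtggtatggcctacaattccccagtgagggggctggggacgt
Tjp3 start 2: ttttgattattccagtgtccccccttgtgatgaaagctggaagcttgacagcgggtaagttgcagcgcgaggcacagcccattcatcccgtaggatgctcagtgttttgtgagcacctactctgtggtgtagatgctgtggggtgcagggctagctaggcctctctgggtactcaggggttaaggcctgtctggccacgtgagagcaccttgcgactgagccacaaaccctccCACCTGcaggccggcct

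In these 5 windows the capitals mark the GC box bound by SP and KLF factors (GGGCGG), the AP-1 site (TGANTCA) or the Snail E-box (CAGGTG). The GC box was found before at least 1 start of 8 of the 9 genes and before neither start of Tjp3. Counted by window, 10 of the 14 windows of these genes held it, beside 32.7% of 32851 RefSeq promoters of this length. Some windows overlap, and the GC box before starts 2 and 3 of Cldn12 is the same site. All windows but those of Cldn12 start 1, Cldn7 start 1 and Tjp3 start 1 had more GC than the median promoter (52.4%). The comparison was not adjusted for GC content. Cldn1 had a GC box 14 and 42 bases before its start, Cldn4 had 1 at 44 bases and Cldn3 had 1 at 236 bases. Cldn4 was the only one of the 9 genes with an AP-1 match, at 158 and 240 bases before its start (6.75% of all promoters). The Snail E-box (6 of the 14 windows, 17.2% of all promoters) was found before both starts of Tjp3, at 108 and 17 bases, and also before starts of Cldn4, Cldn6, Cldn7 and Ocln, so that it was shared by genes that fell and the gene that rose. No window of the 9 genes held the grainyhead motif AACCGGTT (0.116% of all promoters), the TCF/LEF motif CTTTGAT (3.21%) or the TATA box TATAAA (12.4%), and no matches overlapped each other. These matches describe the letters of the windows, and binding was not measured.

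Over the 6 claudins, the summed level was 630, 706 and 657 normalized counts per kb in the WT-labelled libraries and 313, 296 and 322 in the Dab2-cKO-labelled ones, 2.14-fold lower (exact permutation p = 0.1). This sum, unlike the shares that follow, depends on the scaling between libraries. Cldn1 made up 50.2% ± 0.44 of this sum in the WT-labelled libraries and 57.7% ± 2.6 in the Dab2-cKO-labelled ones. Cldn4 made up 37.5% ± 2.59 and 28.4% ± 3.53. The share of Cldn1 was thus larger and that of Cldn4 smaller in every library labelled Dab2-cKO than in any labelled WT, while the share of Cldn12 went from 3.03% ± 0.455 to 4.48% ± 0.381, also without overlap. For these 3 shares the exact 2-sided permutation test gave p = 0.1, its smallest value, and 0.2 after adjustment over the 6 claudins. Cldn3 (5.78% ± 1.4 and 4.31% ± 0.773), Cldn6 (2.51% ± 0.401 and 2.88% ± 0.717) and Cldn7 (1.03% ± 0.391 and 2.2% ± 0.871) overlapped between the genotypes.

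**Figure D3:**
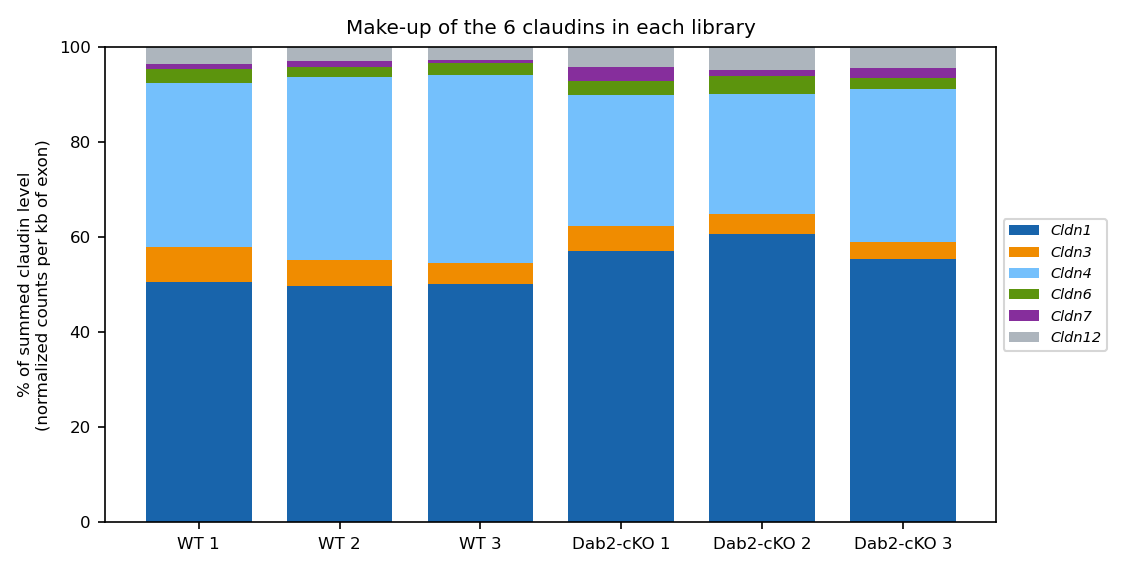
Share of each of the 6 claudins in their summed level (vertical axis, percent of normalized counts per kb of exon) in each of the 6 libraries (horizontal axis, genotype as labelled and replicate). Cldn1 and Cldn4 fill most of every bar, with Cldn1 at 50.2% and Cldn4 at 37.5% on average in the WT-labelled libraries and at 57.7% and 28.4% in the Dab2-cKO-labelled ones.

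Ratios of 2 genes within a library gave the same comparison in pairs. Cldn4 stood at 0.745 times the level of Cldn1 in the WT-labelled libraries and at 0.49 times in the Dab2-cKO-labelled ones, a difference in the log2 ratio of -0.61 with no overlap. With no background subtracted, the ratio of Cldn3 to Cldn4 was 0.152 and 0.151, a log2 difference of -0.005 that lay inside the spread of the libraries (SD 0.44 and 0.40). Tjp3 stood at 0.11 times the level of Tjp1 in the WT-labelled libraries and at 0.279 times in the Dab2-cKO-labelled ones, a 2.54-fold change of the ratio with no overlap. Ocln to Tjp1 differed by -0.15 on the log2 scale without overlap, and Cldn7 to Cldn1 by 0.88 with overlap. Over these 5 ratios, the exact 2-sided permutation test gave p = 0.1 for Cldn4 to Cldn1, Tjp3 to Tjp1 and Ocln to Tjp1 (0.167 adjusted), p = 0.3 for Cldn7 to Cldn1 (0.375 adjusted) and p = 1 for Cldn3 to Cldn4.

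Other epithelial genes and markers of other cells moved between the same libraries. Hair shaft and inner root sheath genes, which the sorted bulge cells are not known for, were lower for 13 of 13 genes, with summed levels of 230535 to 277333 normalized counts in the WT-labelled libraries and 2408 to 2514 in the Dab2-cKO-labelled ones. The paper places both genotypes in the resting phase of the hair cycle (second telogen) at PD68. Whether the stage of the follicles differed between these libraries was not tested. Genes of differentiated interfollicular epidermis were higher for 9 of 11 (17612 to 20170 and 58782 to 59646), those of the infundibulum and sebaceous gland for 8 of 10 (10664 to 12063 and 28856 to 29993), and those of basal keratinocytes for 4 of 5 (17356 to 19740 and 29142 to 29973). Bulge HFSC genes were higher for 5 of 8 and lower for 3 (6745 to 7644 and 10882 to 11160). Fibroblast (6 of 6, 101493 to 122727 and 353980 to 373641), endothelial (6 of 6, 1441 to 1603 and 4969 to 5104) and immune genes (5 of 6, 1402 to 1577 and 6399 to 6691) were higher, and none of their defining markers was at 0 in either genotype. Melanocyte genes were lower for 6 of 6 (3243 to 3588 and 1099 to 1119), and those of the companion layer and inner bulge for 3 of 5 (9313 to 11053 and 2601 to 2688). The part of these cells in the tight junction results was not tested.

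Because of these shifts, each tight junction gene was also set against an epithelial gene of the same library, with references chosen after seeing the data. Against Cdh1, the gene of E-cadherin (2804 ± 313 normalized counts in the WT-labelled libraries and 1988 ± 14.1 in the Dab2-cKO-labelled ones), Cldn1, Cldn3 and Cldn4 lay lower in the Dab2-cKO-labelled libraries without overlap (log2 differences -0.41, -1.02 and -1.01), and Tjp3 lay higher without overlap (1.40). Against Cdh1, the differences of Ocln (-0.09), Cldn12 (-0.04) and Tjp1 (0.06) overlapped between the genotypes. Against Krt14, the basal keratin gene (6378 ± 420 and 11472 ± 255 normalized counts), the log2 differences of Cldn3 and Cldn4 were -2.36 and -2.35, that of Cldn1 was -1.74, and those of Ocln, Cldn12 and Tjp1 were -1.43, -1.38 and -1.28, all without overlap. Tjp3 to Krt14 differed by 0.06 with overlap. The exact 2-sided permutation test gave p = 0.1 wherever libraries did not overlap (0.225 adjusted over the 9 genes for Cdh1 and 0.129 for Krt14). Subtraction of the receptor-gene background from each library kept every sign but changed the sizes of low genes. The log2 difference became -1.95 for Cldn3 and -1.51 for Cldn6, beside -1.55 for Cldn4.

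**Figure D4:**
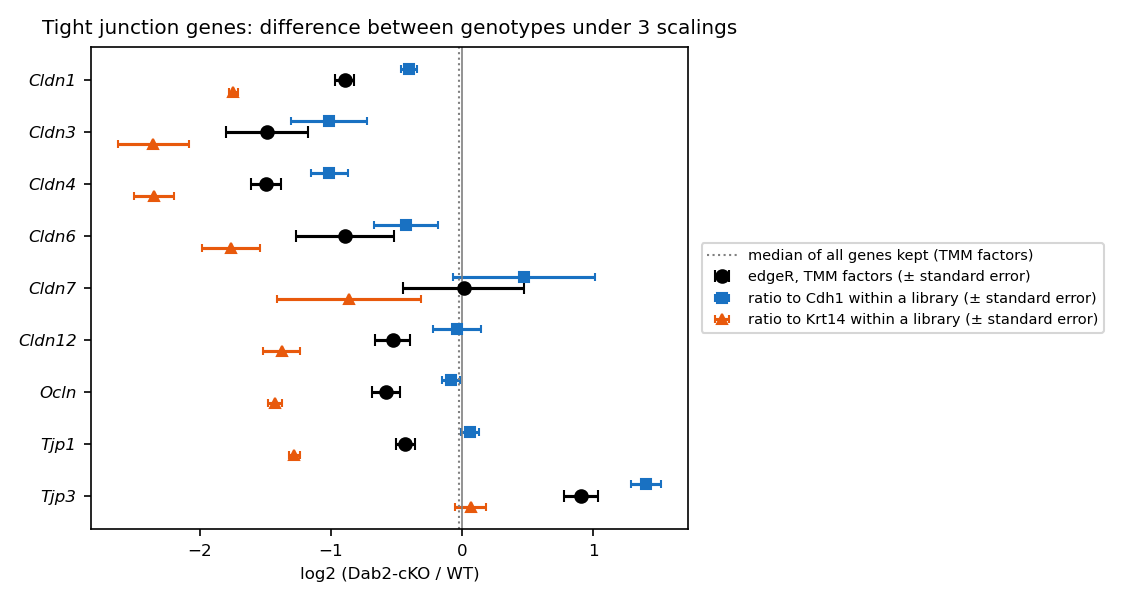
Log2 difference of the Dab2-cKO-labelled libraries minus WT for each tight junction gene (axis in log2 units, 0 for no difference), from edgeR with ± SE and as log2 ratios to Cdh1 and to Krt14 within a library. Cldn3 and Cldn4 lie furthest below 0 on all 3 scales, Ocln, Cldn12 and Tjp1 lie near 0 against Cdh1, and Tjp3 lies near 0 against Krt14.

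Of the 28 other claudins in the table, 18 passed the expression filter, 2 of them were higher and 5 lower, with a median log2 fold change of 0.22. That median turned to -0.22 with library size only and also without Dab2-cKO replicate 1. It was -0.03 without WT replicate 2 and -0.08 at a mean count of at least 50. The lower calls were 2 without WT replicate 3, 3 without Dab2-cKO replicate 1, 3 with DESeq2 and 2 at a mean count of at least 50. Cldn8 had 93.5, 119 and 103 normalized counts in the WT-labelled libraries and 32.4, 43.7 and 37.5 in the Dab2-cKO-labelled ones, a log2 fold change of -1.48 (SE 0.21, adjusted p = 2.3e-08). Cldn10 fell from 98.7 ± 5.56 to 51.1 ± 3.66 (-0.95, SE 0.20, adjusted p = 7.98e-05). The other lower ones were Cldn13, Cldn14 and Cldn18, which were called in 10, 9 and 8 of 12 alternatives. Cldn18 (3.94 and 1.33 normalized counts per kb) lay under the receptor genes' median (4.89) under both labels. Cldn13 (22.8) and Cldn14 (16.7) exceeded the receptor genes' upper percentile given above (11.7) in the WT-labelled libraries. In the Dab2-cKO-labelled ones they lay under it (9.11 and 9.24). Cldn5, the claudin of endothelial cells, rose from 30.1, 16.3 and 53.8 to 83.9, 86.3 and 102 normalized counts (2.68-fold, edgeR adjusted p = 2.56e-06), beside the endothelial genes Vwf (467 ± 23.0 to 1361 ± 50.4) and Pecam1 (307 ± 27.6 to 1132 ± 23.3). Cldn23 rose from 45.7 ± 3.02 to 81.2 ± 18.4 (0.82, SE 0.22, adjusted p = 0.00225), and without Dab2-cKO replicate 2 it was not called (adjusted p = 0.0777). Cldn22 was at 0 in all libraries.

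Among 12 transmembrane partners of the claudins, 5 were lower and 5 higher. The lower calls were 3 with DESeq2 and when WT replicate 2, Dab2-cKO replicate 1 or Dab2-cKO replicate 3 was left out, and library size only gave 6 lower and 2 higher. The lower ones were Marveld2, Lsr, Ildr1 and the adhesion genes F11r (JAM-A) and Cxadr. F11r fell from 516 ± 15.3 to 298 ± 14.3 normalized counts (-0.79, SE 0.09, adjusted p = 6.71e-11), Lsr from 368 ± 37.6 to 247 ± 23.2 (-0.57) and Cxadr from 835 ± 19.2 to 615 ± 43.1 (-0.44). The higher ones were Jam2, Jam3, Esam, Ildr2 and Bves. Of 13 alternatives, 7 called Marveld2, 9 Ildr1, 8 Ildr2, 11 Jam3 and 12 Bves. Ildr1 (9.09 and 5.80 normalized counts per kb) and Ildr2 (7.70 and 11.3) lay under the receptor genes' upper percentile (11.7) under both labels. Jam3 (7.48) and Bves (7.90) were under it in the WT-labelled libraries and above it in the Dab2-cKO-labelled ones (12.1 and 13.4). Esam, an adhesion molecule of endothelial cells, rose from 106 ± 3.91 to 271 ± 31.8 (1.35, SE 0.13, adjusted p = 5.85e-14), and the endothelial markers rose in the same libraries.

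Of 15 plaque and scaffold genes, 7 were higher and 4 lower, with a median log2 fold change of 0.13. With upper-quartile factors the counts were 4 and 6, and with library size only 2 and 9, so the majority direction of this list turned with the scaling. Magi1, Magi3 and Patj, which encode PDZ scaffolds, were among the lower ones, and Cgn (cingulin), Magi2, Mpdz, Amot, Amotl2, Ybx3 and Arhgef2 were higher, of which Magi2, Mpdz, Amotl2 and Ybx3 turned negative with library size only (-0.04 for Magi2 and -0.15 for Mpdz). Magi2 was called in 4 of 13 alternatives, with adjusted p up to 0.848. In the WT-labelled libraries its level (11.6 normalized counts per kb) lay just under the receptor genes' upper percentile (11.7). In the Dab2-cKO-labelled ones it lay above (15.3). The rise of Ybx3 was small, from 2880 ± 82.9 to 3277 ± 137 (0.19, SE 0.07, adjusted p = 0.0327), and was not called when WT replicate 3 (adjusted p = 0.0729), Dab2-cKO replicate 1 (0.159) or Dab2-cKO replicate 2 (0.179) was left out, nor with upper-quartile factors (0.62), no filter (0.0897) or a mean count of at least 50 (0.129). With library size only, Ybx3 was called lower. Amotl2 rose from 864 ± 71.8 to 1078 ± 23.5 (0.32), and Amotl1 had 1898 ± 80.6 and 2077 ± 61.6 (0.13, adjusted p = 0.179).

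The polarity genes, whose proteins place the junction belt along the lateral membrane, were lower for 9 of 14 and higher for 1, Mpp5, with a median of -0.43. Pard3 fell from 1361 ± 59.9 to 1023 ± 47.2 normalized counts (-0.41), Prkci, the atypical protein kinase C, from 1197 ± 49.3 to 775 ± 47.3 (-0.63) and Lin7c from 736 ± 35.3 to 579 ± 29.9 (-0.35). Scrib had 719 ± 70.6 and 684 ± 40.0 (-0.07, adjusted p = 0.585). Of the 6 genes of the EpCAM family and the surface proteases that act on it, 5 were lower, with a median of -0.76. Epcam fell from 768 ± 33.2 to 474 ± 16.8 (-0.70), St14, which encodes matriptase, from 1687 ± 133 to 475 ± 10.6 (-1.83, SE 0.08, adjusted p = 4.71e-32), and its inhibitor gene Spint1 from 549 ± 33.8 to 168 ± 12.01 (-1.71).

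Of 9 transcription factor genes linked to epithelial barriers, 4 were higher and 3 lower. Grhl1 fell from 2205 ± 115 to 1044 ± 43.5 normalized counts (-1.08) and Ovol1 from 440 ± 45.5 to 153 ± 4.55 (-1.52), and Grhl2 was also lower. Grhl3, a grainyhead factor of the differentiating epidermis, rose from 305 ± 16.5 to 490.2 ± 23.4 (0.69). Zeb2, which represses epithelial genes and is also expressed by fibroblasts and immune cells, rose from 967 ± 35.6 to 3088 ± 50.7 (1.67, SE 0.07, adjusted p = 7.77e-32), as did Zeb1 and Snai1, beside the rise of Col1a1 and of the immune gene Cd74 (726 ± 76.9 to 3422 ± 33.1). Snai1 lay under the receptor genes' upper percentile (11.7) in the WT-labelled libraries (10.1 normalized counts per kb) and above it in the Dab2-cKO-labelled ones (33.8). Over these lists and the adherens junction genes together, 83 of 93 genes passed the filter, 39 were lower, 19 higher and 25 not called, with a median of -0.37.

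**Figure D5:**
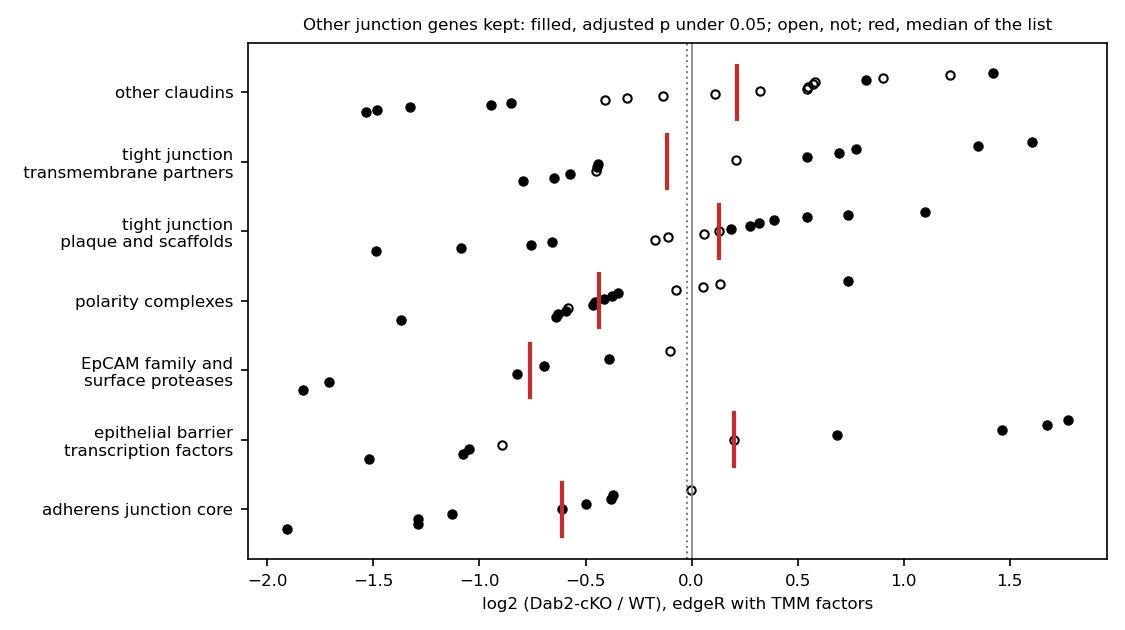
Log2 fold change (Dab2-cKO-labelled libraries over WT, edgeR) of every gene that passed the filter in each list, with filled points for genes called at an adjusted p under 0.05, open points for the others and red lines for the median of a list. The medians lie below 0 for the transmembrane partner, polarity, EpCAM and adherens junction lists. They lie above 0 for the other claudins, the plaque genes and the transcription factors. These medians above 0 turn below 0 with library size only, and those of the other claudins and the plaque genes also in further alternatives. Most lists have genes on both sides of 0.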

How the data were processed

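Total RNA of FACS sorted HFSCs was sequenced from 3 biological replicates per genotype after a SMARTer Stranded low-input preparation. The authors trimmed reads with fastp 0.23.4, aligned them to GRCm39 with HISAT2 2.2.1, sorted them with SAMtools 1.6 and deposited counts per gene from featureCounts 2.0.6 without normalization. Strandedness in counting, multimapping reads, molecular identifiers and the annotation release were not given in the sources used here. The authors' table of their own comparison by DESeq2 was not used. The count columns of the group taken as Dab2-cKO are named FL-FL, and were assigned by the series label, which sets cKO beside Fl/Fl, although both genotypes are floxed.

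Counts were filtered, scaled by TMM and tested with edgeR 4.0.16 (filterByExpr, robust quasi-likelihood test, Benjamini-Hochberg adjustment over 32149 genes) in R 4.3.3, after a check on simulated data. The SE is the log2 fold change divided by the root of the F statistic. Exact permutation tests were 2-sided. Exon lengths and GRCm39 coordinates came from the GENCODE annotation, which held 98.9% of the gene IDs, and promoters from RefSeq (9 of 9 genes). Of 2 rows named Magi1, the one on the chromosome of the RefSeq gene (6) was used. At 0 counts the upper limit (3 counts) is 2.56e-05% to 4.26e-05% of the total, for counting error only. P-values set the difference between genotypes against the spread between these libraries only. The edgeR test estimates that spread with information shared over all genes tested.

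Genes named were the 9 genes, Dab2, up to 4 genes of highest level per kb in each list, up to 2 of highest count in each marker list, and the 3 most like Cldn1 over the libraries. Others are named only by their call, except the sort marker Cd34 and the Cldn3 neighbour Wbscr25, added after their values were seen. Some genes the rule names are not reported here. The genes, lists and comparisons were chosen with earlier results of these data known. Alternatives were DESeq2 1.42.0, other scalings and filters, a replicate block and each library left out.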

Additional observations from a re-analysis of the deposited data

How the results depend on the processing

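The 6 lower calls and the higher call of Tjp3 held in every alternative fit by edgeR or DESeq2 in which the gene was tested, but not all did as ratios within a library: against Cdh1 Tjp1 changed sign and Ocln and Cldn12 overlapped between genotypes, and against Krt14 Tjp3 overlapped. A mean count of at least 50 left out Cldn3, Cldn6 and Cldn7. With library size only, the median of all genes moved by -0.43 on the log2 scale, and with upper-quartile factors by -0.14. The calls over all genes were then 2686 higher and 11168 lower (80.6% lower) with library size only and 4281 higher and 5561 lower (56.5% lower) with upper-quartile factors, beside 5387 and 3682 (40.6% lower) with TMM. DESeq2 called 4685 higher and 2871 lower. With library size only, 10 genes of the other lists were called higher and 53 lower. Leaving out 1 library gave 4800 to 5322 higher and 3091 to 3731 lower calls, and 5 to 9 of the 9 genes kept their rank by level in the Dab2-cKO-labelled libraries (5 without Dab2-cKO replicate 2) and 7 to 9 in the WT-labelled ones.

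Cldn7, which was never called, changed sign with upper-quartile factors (-0.12), library size only (-0.41), no filter (-0.021) and as a ratio to Krt14 (-0.86), and ranged from -0.32 to 0.38 when 1 library was left out (-0.27 without WT replicate 3, -0.32 without Dab2-cKO replicate 1 and -0.04 without Dab2-cKO replicate 3). Tjp1 changed sign as a ratio to Cdh1 (0.059). Library size only gave -0.24 for Ybx3, -0.30 for Amotl1 and -0.11 for Amotl2, upper-quartile factors gave -0.015 for Amotl1, and Scrib reached 0.0016 without WT replicate 2. Beyond the scaling itself and the removal of libraries, the cause was not tested.

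Replicates with the same number did not deviate together (correlations 0.0231, 0.0117 and 0.00759). The fit with the replicate number as a block called 5347 genes higher and 3620 lower, with 6 of the 9 genes lower and 1 higher. Depth limits Cldn6 and Cldn7, at 7 to 34 counts per library, and Cldn3 in the Dab2-cKO-labelled libraries, at 13 to 21 counts.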

Other observations

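The adherens junction core, which joins epithelial cells just below the tight junctions, was lower for 8 of 9 genes in the Dab2-cKO-labelled libraries, with a median log2 fold change of -0.61 beside -0.02 for all genes tested. Afdn, which encodes the nectin-binding scaffold afadin, fell from 4030 ± 347 to 2640 ± 139 normalized counts (SD, n = 3; log2 fold change -0.61, SE 0.07, edgeR adjusted p = 3.45e-11). Nectin4 fell from 1079 ± 90.6 to 441 ± 8.56 (-1.29, SE 0.08, adjusted p = 5.2e-23). Cdh1 and Ctnna1, the genes of E-cadherin and alpha-catenin, fell less, at -0.50 and -0.37. Nectin3 was not called.

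The protein-coding genes most like Cldn1 over the 6 libraries were Wdr43, Erc1 and Fam83g, each with a Pearson r on log2 values that rounds to 1.00. All libraries share the split by genotype, and 1505 of 19492 protein-coding genes (7.72%) had r over 0.95 with Cldn1. Their log2 fold changes were -0.44, -1.14 and -1.31.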
